A study of Arabidopsis thaliana with 12 samples.

Results

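A set of 77 genes held a high place on the array both in photoinhibitory cold and after return to warmth. The genes were chosen from 692 probes listed with 1 gene, out of 3439 probes in all. For each array, every probe was given a percentile rank by its deposited signal, where 100 is the brightest probe, and the ranks were averaged over the 6 samples of a group. A gene was kept when both group means were at least 80 and differed by less than 10 percentile points. A further 5 genes met these limits and were left out by name, as genes of photosynthesis and chlorophyll synthesis given in the rule. The ranks and the comparison of recovery with cold therefore chose the genes, and the values below describe them without a test.

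The samples were total RNA of wild-type Arabidopsis thaliana, ecotype Columbia 0, the common laboratory accession of thale cress. Cold plants received medium light for 24 h at 4 °C, which the labels call photoinhibitory. Recovery plants went through the same cold treatment, which all samples thus share, and then spent another 24 h at 20 °C under medium light. There were 6 numbered samples in either group. The labels name neither the tissue nor the age of the plants, and do not say whether samples came from separate plants, so the spread between samples may be technical. Neighbouring numbers (1-2, 3-4, 5-6) were averaged within a group, which leaves n = 3 for each SD. Over all probes, deviations from the group mean correlated within these pairs at 0.336 to 0.503 in cold and at -0.0326 to 0.0627 in recovery. Over the 77 genes they correlated at 0.776 to 0.840 and 0.599 to 0.760, as a description over probes that share arrays. Deviations from a mean that includes both samples correlate negatively when the samples are unrelated. The low values in recovery thus do not show that the samples of a pair were unrelated.

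Photoinhibition arises when light damages photosystem II faster than the plant repairs it. Cold favours it, because carbon fixation and repair slow down while light is still absorbed. Return to warmth lets both resume, and many nuclear genes for chloroplast proteins respond. A percentile rank states the place of a probe among the other probes of the same array. It does not depend on how an array was scaled, but it depends on the probe itself, so the order of genes below is an order of probe signals and not of transcript amounts. In bulk RNA, fewer cells of a type and less RNA per cell cannot be told apart.

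Deposited signals were lower in recovery over most of the array. The median signal of a sample ran from 0.276 to 0.315 in cold and from 0.0971 to 0.128 in recovery, on the authors' linear scale that ends at 100. The gap closed towards the top of the array, where the 77 genes lie. At the 80th percentile, cold samples had a signal of 0.836 ± 0.0560 and recovery samples 0.434 ± 0.0240 (SD, n = 3), a ratio of 0.520. At the 90th percentile the ratio was 0.691, and at the 95th it was 0.887. At the 99th percentile the signals were 12.6 ± 0.467 and 12.7 ± 0.356, a ratio of 1.01. Above it the order turned, and at 0.5 points higher the signals were 20.1 ± 0.874 and 36.0 ± 2.42. A gene that kept its rank exactly thus had a lower deposited signal in recovery near the 80th percentile, nearly the same signal near the 99th, and a higher one at the very top.

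**Figure D1:**
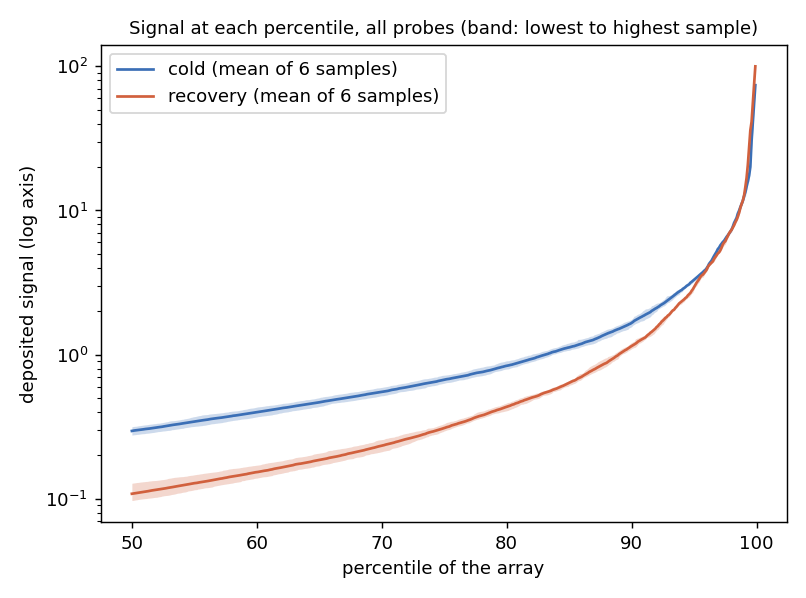
Deposited signal (log axis) at each percentile of the array from 50 upward, for cold (blue) and recovery (red). Lines are means of 6 samples and bands run from the lowest to the highest sample; the ratio of recovery to cold is 0.520 at the 80th percentile and 1.01 at the 99th.

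Among the 145 probes of 1 gene with a mean rank of at least 80 in either group, the 77 genes were the largest class. Another 18 had a recovery mean of at least 80 and gained 10 points or more, and 26 had a cold mean of at least 80 and lost 10 points or more. The remainder were the 5 left out by name and 19 that passed 80 in a single group with a difference under 10 points. Over all 3439 probes, 501 were at or above 80 in both groups, and 476 of these differed by less than 10 points. The share of probes that met both limits was 11.8% among probes of 1 gene, 12.5% among 870 probes of several genes and 15.2% among 1877 unlisted probes.

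**Figure D2:**
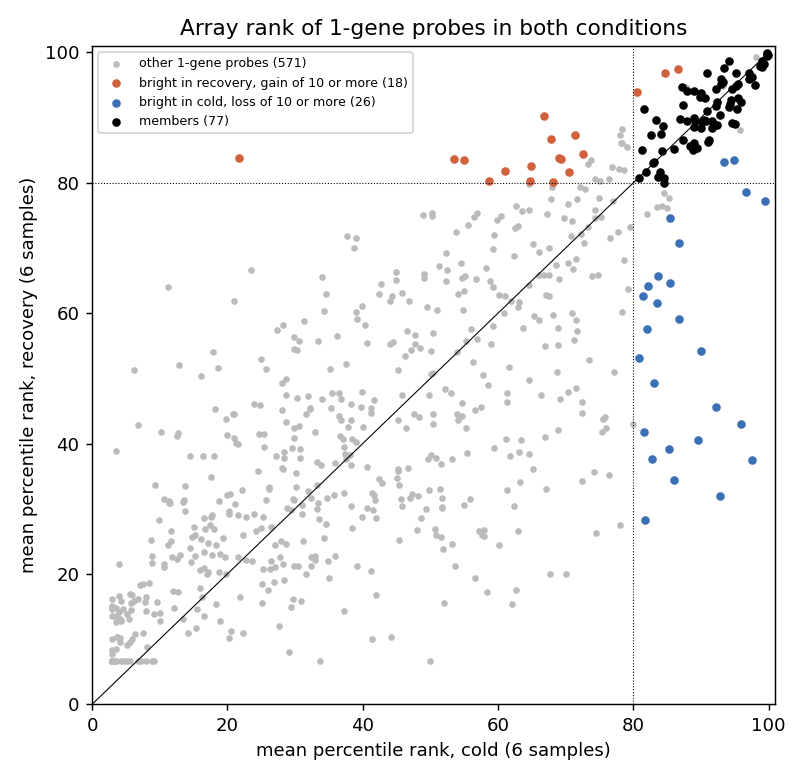
Mean percentile rank in recovery (y axis) against cold (x axis) for the 692 probes of 1 gene, each mean over 6 samples. Black points are the 77 genes that kept a high rank, red the 18 that gained 10 points or more to reach it and blue the 26 that lost 10 points or more; dotted lines mark a rank of 80 and the diagonal marks an equal rank.

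The limits cut through a continuous range. AT4G27250, AT3G25840 and AT4G27700 lay just inside the limit of 80, with recovery means of 80.04, 80.67 and 80.69. AT1G55440 and AT4G01810, with cold means of 79.03 and 78.57, and AT4G16410, with a recovery mean of 78.44, lay just outside it. For the difference, LpxA (9.66 points), AT1G03810 (7.51) and AT3G23940 (6.43) came closest to 10 from within. AT5G63290 (-10.2 points), AT5G64040 (10.8) and AT3G04210 (-11.3) were the nearest outside.

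The 77 genes had a median rank of 91.0 in cold and 91.3 in recovery. Their absolute rank difference had a median of 2.26 points and a range from 0.0727 to 9.66, and it stayed under 1 point for 25 genes, under 2 for 34 and under 5 for 69. Recovery ranks were higher for 30 genes (39.0%) and lower for 47, beside 57.0% of all probes and 56.4% of the probes of 1 gene that were higher. For 21 genes (27.3%) the difference was smaller than the pooled SD of the averaged samples, beside 26.6% of all probes. In 66 genes the rank was at or above 80 in all 12 samples, while 11 dropped under 80 in at least 1 sample. None of the 77 was listed at a signal of 0 in any sample.

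Quantile normalization gives each probe a value set by its rank within the array, so the fit that follows is no measure apart from rank. In the fit over all probes after quantile normalization (limma, Benjamini-Hochberg adjustment, threshold 0.05), 40.7% of all 3439 probes and 39.9% of the probes of 1 gene passed. Of the 77 genes 38 passed, or 49.4%, 16 as higher and 22 as lower in recovery, beside 21.4% of all probes passing as higher and 19.3% as lower. With the dimmer 25% of probes left out, the shares lay close together. Then 39 of the 77 genes passed (50.6%), beside 48.8% of 2579 probes and 48.3% of 505 probes of 1 gene. Ranks of the 6 recovery samples lay wholly on 1 side of the 6 cold samples for 32 of the 77 genes (41.6%), beside 34.9% of all probes and 31.2% of the probes of 1 gene. These counts are given as a description, since the same contrast chose the genes. Without recovery samples 3 and 4, 25 of the 77 passed (32.5%), beside 35.7% of all probes and 33.4% of the probes of 1 gene, so that the order of these shares turned.

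A group of 4 genes stood above a rank of 99 in both conditions. They are listed by locus alone, without another name in the gene table. Their mean ranks differed by less than 1 point between groups, while their signal ratios ran from 0.502 to 1.85. AT3G09850 had ranks of 99.71 to 99.85 in cold (median 99.80) and 99.85 to 99.94 in recovery (median 99.94). Its deposited signal ran from 37.4 to 66.1 in cold and from 86.2 to 100 in recovery, where 4 of 6 samples stood at the upper end of the scale. The signals of the groups did not overlap, and their means were 51.9 ± 13.2 and 96.2 ± 6.65 (SD, n = 3). The ratio of 1.85 is bounded by that end of scale, although the rank difference was only 0.126 points.

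AT4G31530 went the other way at nearly the same rank. It ranked from 99.88 to 99.97 in cold (median 99.94) and from 99.51 to 99.62 in recovery (median 99.56). Its deposited signal lay between 65.9 and 93.3 in cold, with a mean of 80.5 ± 12.9, and between 37.7 and 44.0 in recovery, with a mean of 40.4 ± 2.55 (SD, n = 3). All recovery signals were below all cold signals, at a ratio of 0.502. AT2G27290 ranked from 99.80 to 99.88 in cold and from 99.71 to 99.85 in recovery, with median signals of 56.7 and 57.0; its groups overlapped. AT4G17070 had median signals of 49.5 in cold and 34.1 in recovery, and its groups overlapped too. Together these 4 probes carried 53.7% of the summed signal of the 77 genes in cold and 59.7% in recovery. The probe of AT3G09850 alone accounted for 24.3% in recovery, beside 11.8% in cold.

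Below them, 8 more genes made up the 12 with the highest mean rank. AT3G13150 had median ranks of 98.92 in cold and 98.74 in recovery, and its signals (11.1 to 13.5 and 8.70 to 13.4) overlapped. AT4G19900 had signals of 14.9 to 20.8 in cold and 7.46 to 9.08 in recovery. AT4G32060 had signals of 6.91 to 8.35 in cold and 2.56 to 3.58 in recovery. These groups did not overlap for AT4G19900 (ratio 0.479) or AT4G32060 (ratio 0.404), whose mean ranks went from 99.36 to 98.29 and from 98.04 to 95.07. AT3G26630 followed at mean ranks of 97.15 and 95.98, and AT4G39760 at 97.10 and 96.80. The other 3 of the 12, NdhS, CCL and XERICO, are described by role below.

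**Figure D3:**
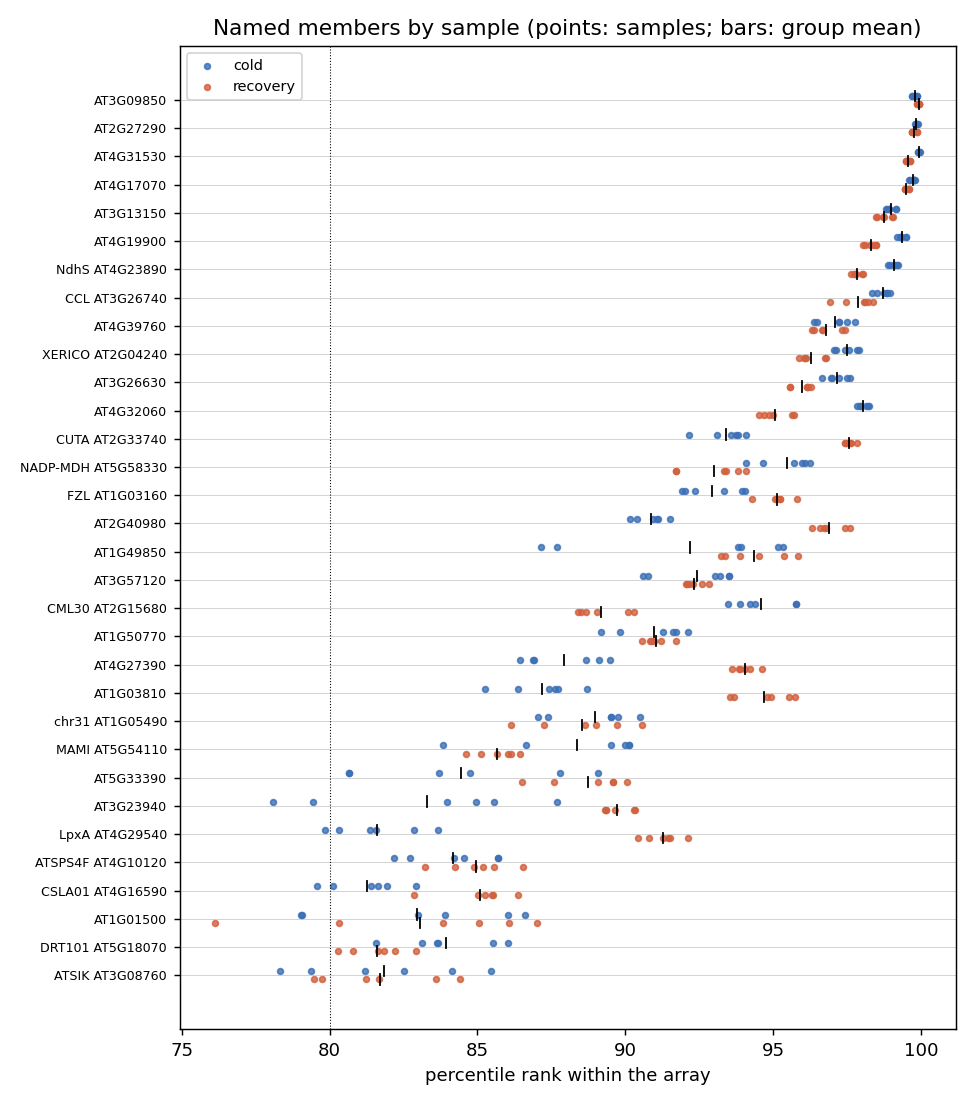
Percentile rank within the array (x axis) of the 32 genes named by rule, with 6 cold samples (blue) and 6 recovery samples (red) per gene; black bars are group means and the dotted line marks a rank of 80. Points of the top genes nearly coincide, while AT1G01500 spans 76.1 to 87.0 in recovery and AT3G23940 spans 78.1 to 87.7 in cold.

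Of the 77 genes, 15 are given a name here and 62 are listed by locus only. Named genes with a place in the chloroplast did not share a direction: of 5, ranks were higher in recovery for 3 and lower for 2. NdhS (AT4G23890) is the ferredoxin-docking subunit of the NADH dehydrogenase-like complex, which returns electrons from photosystem I to the thylakoid electron chain. It ranked from 98.89 to 99.21 in cold (median 99.10) and from 97.64 to 98.05 in recovery (median 97.78). Signals averaged 13.3 ± 1.62 in cold against 6.97 ± 0.348 in recovery (SD, n = 3), with no overlap, at a ratio of 0.525. The rank difference was -1.25 points. The signal ratio was below that of the whole array near these ranks, which was 0.997 at the 98th percentile and 1.01 at the 99th.

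NADP-MDH (AT5G58330) reduces oxaloacetate to malate in the chloroplast and so exports surplus reducing power. Its deposited signals ran from 2.95 to 4.45 in cold (median 3.77) and from 1.38 to 2.31 in recovery (median 2.05). The signals were separate between groups, whereas its ranks met at the edges, with 94.07 to 96.25 in cold and 91.71 to 94.10 in recovery. CUTA (AT2G33740), a chloroplast relative of the bacterial copper tolerance protein CutA, stood higher in recovery. Its ranks were 92.15 to 94.10 in cold (median 93.66) and 97.41 to 97.85 in recovery (median 97.54). Mean signals were 2.62 ± 0.126 and 6.33 ± 0.206 (SD, n = 3), a ratio of 2.42, with every recovery sample above every cold sample.

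FZL (AT1G03160), a dynamin-related protein that remodels thylakoid membranes, had ranks of 91.92 to 94.04 in cold and 94.27 to 95.81 in recovery. The ranks did not overlap, but the signals did, with 2.02 to 2.80 in cold and 2.49 to 3.68 in recovery. The fifth chloroplast gene, mTERF9 (AT5G55580), belongs to a family of organelle nucleic acid-binding proteins and is named here after its values were seen. Mean ranks of 89.16 ± 1.34 in cold and 89.47 ± 1.24 after recovery (SD, n = 3) gave a difference within the spread between samples.

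Named genes of signalling and stress numbered 5, and all 5 had a lower mean rank and a lower mean signal in recovery. Ranks were lower for 61.0% of the 77 genes and 43.0% of all probes, and signals for 75.3% and 82.8%. The median rank difference of the 5 was -1.22 points, and their deposited signal ratio had a median of 0.527 beside 0.659 for all 77 genes. CCL (AT3G26740), known for an unstable transcript under control of the circadian clock, had ranks of 98.34 to 98.95 in cold and 96.92 to 98.37 in recovery. Its signals overlapped, with 8.46 to 12.4 in cold and 5.04 to 8.54 in recovery. XERICO (AT2G04240) encodes a RING-type protein that raises the level of the hormone abscisic acid. Its signals were 5.70 to 7.15 in cold (median 6.31) and 3.84 to 4.74 in recovery (median 4.03), without overlap.

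CML30 (AT2G15680), a calmodulin-like protein of the calcium sensor family, stood apart among these 5 by the size of its difference. Its ranks lay from 93.46 to 95.78 in cold (median 94.30) and from 88.40 to 90.29 in recovery (median 88.85). Mean deposited signals were 3.15 ± 0.628 and 1.03 ± 0.0462 (SD, n = 3), a ratio of 0.326. Divided by each sample's median signal the ratio became 0.909. On that scale the median ratio was 1.79 over the 77 genes and 1.24 over all probes. Signals so divided were higher in recovery for 75 of the 77 genes and 2028 of 3439 probes. MAMI (AT5G54110), named for membrane association and induction by mannitol, had ranks of 83.83 to 90.11 in cold and 84.62 to 86.45 in recovery, which overlapped. ATSIK (AT3G08760) ranked from 78.34 to 85.46 in cold and from 79.47 to 84.41 in recovery, so that single samples fell below 80 in both groups. Its rank difference of -0.155 points was smaller than its pooled SD of 2.47.

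The 3 genes grouped by name under sugar, wall and lipid synthesis all had a higher mean rank in recovery. Ranks were higher for 39.0% of the 77 genes and 57.0% of all probes. LpxA (AT4G29540) is the counterpart of the acyltransferase that starts lipid A synthesis in Escherichia coli. It ranked from 79.85 to 83.66 in cold (median 81.46) and from 90.43 to 92.12 in recovery (median 91.36), the largest difference of the 77 genes at 9.66 points. Mean deposited signals of 0.921 ± 0.0723 and 1.36 ± 0.134 (SD, n = 3) did not overlap either. CSLA01 (AT4G16590), of the cellulose synthase-like A family that builds mannan chains, had mean ranks of 81.27 and 85.08. Its signals were lower in recovery all the same, with 0.786 to 0.984 in cold and 0.515 to 0.707 in recovery. ATSPS4F (AT4G10120), a sucrose phosphate synthase, catalyses the step that commits hexose phosphates to sucrose. It had overlapping ranks of 82.18 to 85.69 in cold and 83.22 to 86.54 in recovery, while its signals of 1.07 ± 0.0417 and 0.635 ± 0.0520 (SD, n = 3) did not overlap. Its rank difference of 0.766 points was smaller than its pooled SD of 1.28.

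Both genes with names that refer to chromatin or DNA damage had a lower mean rank in recovery. The difference was less than the pooled SD for the first below and more than it for the second. The gene chr31 (AT1G05490), a chromatin remodeling factor, ranked from 87.06 to 90.49 in cold and from 86.13 to 90.58 in recovery. DRT101 (AT5G18070), named for tolerance of DNA damage, ranked from 81.56 to 86.04 in cold and from 80.28 to 82.93 in recovery. Its deposited signal was 1.06 ± 0.169 and 0.490 ± 0.00749 (SD, n = 3), without overlap between groups. These gene groups were formed from names once the 77 genes were known. A name need not state what the protein does, and no test compares the groups.

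The smallest rank differences belonged to AT1G50770 (0.0727 points), AT2G27290 (-0.0727), AT3G57120 (-0.107), AT1G01500 (0.126) and AT3G09850 (0.126). A small difference did not mean a small spread. AT1G01500 ranged from 79.03 to 86.59 in cold and from 76.13 to 87.00 in recovery, the widest recovery spread of these 5. AT1G50770 ranged from 89.18 to 92.12 in cold and from 90.55 to 91.71 in recovery. AT3G57120 ranged from 90.61 to 93.52 and from 92.06 to 92.82. For the last 2 the recovery ranks lay inside the range of the cold ranks, yet all recovery signals were below all cold signals, at ratios of 0.700 and 0.722.

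The 5 largest differences were all gains. Besides LpxA they were AT1G03810, AT3G23940, AT4G27390 and AT2G40980. AT2G40980 had signals of 1.66 to 2.12 in cold and 4.20 to 6.18 in recovery, a ratio of 2.76. AT1G03810 had signals of 1.22 to 1.41 in cold and 2.13 to 3.76 in recovery, a ratio of 2.20. AT4G27390 had signals of 1.19 to 1.62 and 2.14 to 2.52. In these 3 genes the groups did not overlap in rank or signal. AT3G23940 did not overlap in rank, with 78.08 to 87.70 in cold and 89.30 to 90.32 in recovery, but its signals of 0.819 to 1.30 and 1.01 to 1.24 did. Picked after their values were seen, AT4G09620 had the largest loss of rank, -5.94 points, and AT1G62250 the largest signal ratio, 3.41, for a rank gain of 4.46 points.

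Deposited signals were lower in recovery for 58 of the 77 genes (75.3%), beside 82.8% of all probes and 84.4% of those of 1 gene. They were at most 0.5 times the cold signal for 19 genes (24.7%), beside 54.0% of all probes and 56.9% of those of 1 gene. They were at least 2 times the cold signal for 4 genes (5.19%), beside 4.91% and 4.48%. By position, the 11 genes with a mean rank of 80 to 85 were all lower, with a median ratio of 0.527. The median ratio was 0.619 for 21 genes at 85 to 90, 0.700 for 29 genes at 90 to 95 and 0.825 for 16 genes at 95 to 100. Of the 25 genes whose rank differed by less than 1 point, 12 had a deposited signal that differed by a factor of 1.5 or more. Within the last of these bands the ratios still ran from 0.404 to 3.41, while the largest rank difference was 4.46 points.

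**Figure D4:**
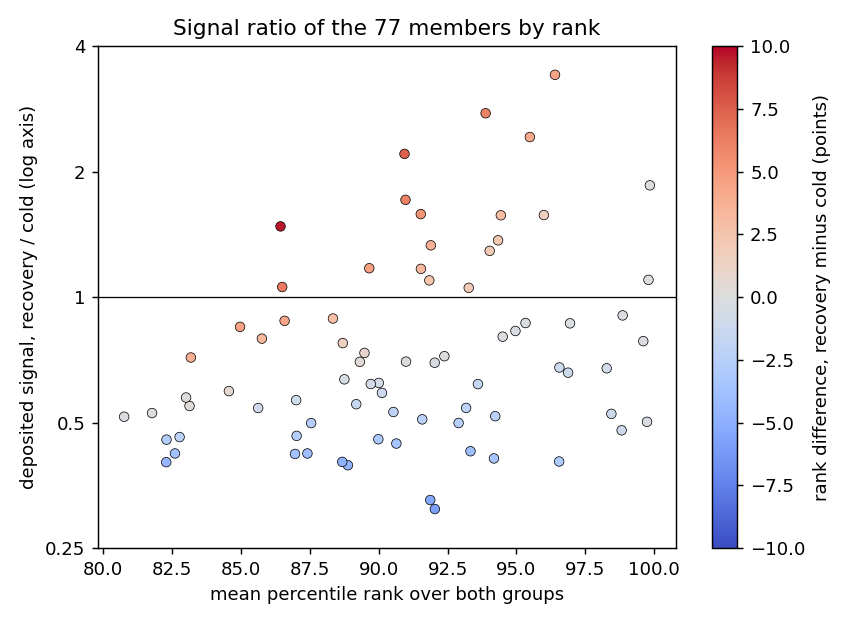
Ratio of mean deposited signal in recovery to cold (log axis) against the mean percentile rank over both groups, one point for each of the 77 genes; colour gives the rank difference in points. At a rank of 80 to 85, the 5 genes that differed by under 1 point (pale) lie within 0.517 to 0.595, and the 4 genes above a rank of 99 lie within 0.502 to 1.85.

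Whether the 77 genes as a set stood higher or lower in recovery depended on the scaling. On the log2 scale, after addition of a pseudocount of 0.0415, their median change was -0.60 as deposited, -0.27 with cyclic loess and -0.11 after quantile normalization. It was 0.58 where each sample was centred on its median, and 0.85 where signals were first brought to a shared median and the pseudocount came after. The median of all probes was -0.86, 0.020, 0.11, 0.31 and 0.15 in the same order. Relative to that median the 77 genes lay at 0.27, -0.29, -0.23, 0.27 and 0.70. Of the 38 to 60 genes that passed in these 5 fits, 49 of 60 were lower as deposited, 30 of 43 with cyclic loess and 22 of 38 after quantile normalization. Centring gave 43 of 44 as higher, and the shared median 52 of 52. Over all probes, 2024 of 2216 were lower as deposited, 723 of 1361 with cyclic loess and 664 of 1399 after quantile normalization. Centring gave 1237 of 1772 as higher over all probes, and the shared median 887 of 1406.

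**Figure D5:**
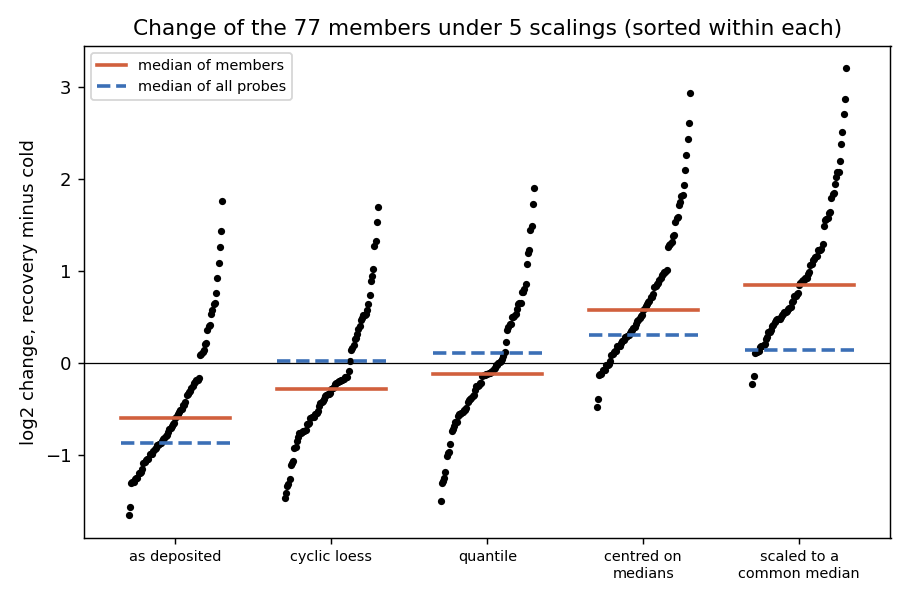
The log2 change (recovery minus cold) of each of the 77 genes under 5 scalings, sorted within each; red bars are the medians of the 77 genes and blue dashed bars the medians of all 3439 probes. The median of the 77 genes runs from -0.60 as deposited to 0.85 with signals brought to a shared median.

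Samples of 1 group differed less for the 77 genes than for the array as a whole. The SD of the rank over the 3 averaged samples had a median of 1.05 points in cold and 0.663 in recovery, beside 3.46 and 5.07 over all probes. A high rank limits how far a probe can move, so this comparison describes the top of the array and not these genes alone. Within the 77 the pooled SD had a median of 2.11 points at a mean rank of 80 to 85 and of 0.285 at 95 to 100. The SD was larger in recovery than in cold for 33 of the 77 genes (42.9%), beside 59.3% of all probes. On the signal scale, where no ceiling of rank acts, the coefficient of variation had a median of 12.2% in cold and 14.1% in recovery, beside 18.3% and 29.8% over all probes. For the 18 genes that gained rank and were bright in recovery, it was 17.1% in cold and 12.2% in recovery. For the 26 that lost rank and were bright in cold, it was 16.5% and 33.3%. Low values were thus not particular to the 77 genes.

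The genes with the widest rank spread were AT3G23940, AT1G01500, AT1G49850, AT5G33390 and ATSIK. AT1G49850 ranked from 87.15 to 95.32 in cold (median 93.86) and from 93.22 to 95.84 in recovery (median 94.18), with cold signals of 1.27 to 3.62. AT5G33390 ranked from 80.66 to 89.07 in cold and from 86.51 to 90.06 in recovery. For both genes the groups overlapped in rank and in signal. The smallest spread, apart from the 4 genes above a rank of 99, was that of NdhS, with an SD of 0.140 points in cold and 0.173 in recovery.

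The genes that gained or lost rank differed from the 77 in where they started. The 18 gainers had a median rank of 68.0 in cold and 83.7 in recovery, and the 26 losers 85.7 and 55.8. Their median deposited signal ratios were 1.30 and 0.101, beside 0.659 for the 77 genes. These values follow from the limits that defined the 3 sets. AT4G31930 had the largest gain, 62.0 points, and HISN4 (AT4G26900), which serves histidine synthesis, the largest loss, -60.9 points. Their SD of rank was 22.0 points in cold for the former and 22.4 in recovery for the latter, where each probe was dim. The share of the summed array signal held by the 77 genes had a mean of 12.3% ± 0.493 (SD, n = 3) in cold samples and 12.3% ± 0.743 in recovery samples. It went from 1.89% to 0.151% for the losers and from 0.295% to 0.708% for the gainers. The equal means of the 77 genes rest largely on few probes. The 4 brightest held 53.7% of the signal of the 77 genes in cold and 59.7% in recovery. AT3G09850 alone, limited by the end of the scale in recovery, held 11.8% and 24.3%.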

How the data were processed

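The authors deposited 1 table of signals for 3439 probes and 12 arrays, linear, never negative and at most 100; how these signals were made, and the array's background correction and scaling, are not given in the sources used here. Neither labels nor headers name a date, slide or batch, and group and batch, if they coincide, cannot be told apart. The number of arrays limits the precision. Probes were named through the platform annotation and a RefSeq gene table of assembly TAIR10.1, used for names and gene order only; of 692 probes with 1 gene, 690 matched a locus.

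Percentile ranks were computed within each array over all probes, with ties at their mean rank. For the fit, log2(signal + 0.0415) was quantile normalized, samples 1-2, 3-4 and 5-6 were averaged, and limma 3.58.1 (R 4.3.3; lmFit, eBayes with trend) was applied to all probes with Benjamini-Hochberg adjustment. The pseudocount is the 10th percentile of positive signals. A fold on this scale understates changes of dim probes. The procedure was run on simulated data, with both groups drawn from the means and spread of cold samples and changes added to some probes. This run does not cover the larger spread of recovery samples over all probes. Same-numbered samples of the groups were not paired: the labels give no shared origin, and their averaged deviations correlated at 0.0564, 0.120 and -0.00500.

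The 77 genes, the gene groups and the settings were chosen with earlier results of these data known. Named are the 12 highest mean ranks, the 5 smallest and 5 largest rank differences and rank spreads, the 4 brightest of each gene group, and the neighbours of each limit. Figures used matplotlib 3.10.9 (Python 3.11.15).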

Additional observations from a re-analysis of the deposited data

How the results depend on the processing

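The number of genes that kept a high rank was 92 with ranks over probes of 1 gene alone, 77 with group medians, 93 and 62 with limits of 75 and 85, 69 and 81 with differences of 5 and 15 points, and 82 with the named loci kept (chosen after seeing the data). Leaving out a sample or a pair gave 75 to 79, and 72 of the 77 were kept in every one of these. Over all probes, 2216 passed as deposited (192 higher, 2024 lower) against 1399 (735 higher), of which the count ran from 1084 to 1355 with a pair left out. Of the 77 genes, 60 passed as deposited (11 higher), and 25 to 36 with a pair left out. Their median change was -0.60 as deposited, 0.58 centred on medians, 0.85 with a shared median set before the pseudocount and -0.27 under cyclic loess, and it ran from -0.16 to -0.082 with a pair left out. The 19 genes at most at 0.5 times the cold signal became 0 after division by each sample's median, a setting chosen after seeing the data. After that division, 622 of 3439 probes and 126 of 692 probes of 1 gene were still at most at 0.5 times the cold signal. The causes were not tested. With the number pair as a replicate block 1381 probes and 41 of the 77 genes passed; with 6 numbers as a block over 12 samples these were 1777 and 53, and with 12 independent samples 1764 and 51. Of 640 recomputed rank differences of the 32 named genes, 14 moved by more than the SD between samples, all with ranks over probes of 1 gene, and 38 changed sign, in 10 genes. Promoter motifs were not run, as no promoter sequences were used here. Signals near the end of the scale at 100 limit AT3G09850.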

Other observations

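All 77 genes could be placed in the gene order of the TAIR10.1 table, and 5 pairs had at most 10 protein-coding genes between them. AT4G39690 and AT4G39760, with 9 genes between them, had rank differences of -0.359 and -0.305 points at cold ranks of 95.5 and 97.1. AT3G26580, AT3G26630 and AT3G26740 (CCL) follow each other with 6 and 10 genes between, at differences of -2.16, -1.16 and -0.848 points. AT1G50770 and AT1G50880 differed by 0.0727 and -2.40 points. AT4G31470 had mean ranks of 92.9 in cold and 95.9 in recovery, whereas AT4G31530, 5 genes away, differed by -0.363 points. How many such pairs other probes of 1 gene form was not counted.

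Of 8 genes often used as references in Arabidopsis, among them actin and ubiquitin genes, 0 had a probe of their own on this array, so the 77 genes could not be set beside them.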
